A study of Mus musculus with 2 samples.

Results

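Keratins are the intermediate filament proteins of epithelial cells. The genes described here are the protein-coding genes whose symbol is Krt followed by digits alone and which have an entry in both gene tables: 49 of 43346 genes, or of 21474 protein-coding genes. They comprise 26 type I and 23 type II genes. The rule leaves out the letter-suffixed genes Krt6a, Krt6b, Krt33a and Krt33b, and Krt74, which the annotation lists as a pseudogene.

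The data are poly(A) RNA sequencing of mouse mammary gland in 2 libraries that the labels call biological replicates 1 and 2 of 1 group. Both were made from mice of the inbred strain C57BL/6J at 8 weeks of age, and each is labelled as RNA pooled from males and females, with littermates as the source. No allele or agent is named, reproductive state is not given in the sources used here, and no contrast is stated, so no p-value is given and each gene is described by its level in both replicates. The expected counts of all genes summed to 56323489 fragments for replicate 1 and to 42400470 for replicate 2. Skeletal muscle markers held 2.76% of the transcripts in replicate 1 and 0.00131% in replicate 2, and mitochondrial transcripts 17.4% and 4.28%. The count ratio between the replicates also moved with GC content: its median on the log2 scale was -0.96 in the 10% of genes with the lowest GC content and 0.91 in the 10% with the highest.

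A keratin filament is built from pairs of a type I (acidic) and a type II (basic or neutral) protein, and each epithelium uses its own pairs. Single-layered epithelia, among them the luminal cells that line mammary ducts, use the simple keratins Krt8, Krt18, Krt19 and Krt7. Basal cells of stratified epithelia and the myoepithelial cells of the mammary gland use Krt5 with Krt14. Keratinocytes that leave the basal layer of the epidermis switch to Krt1 with Krt10, and hair and nail have a large set of keratins of their own. Filaments end on desmosomes, which join neighbouring cells. Levels are given below in TPM, a share of all transcripts after correction for gene length, as the authors deposited them, for replicate 1 and then replicate 2. Expected counts, the fragments assigned to a gene, follow where precision matters.

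The genes lay in the clusters known for the family in mammals. On mm10, 25 type I genes spanned chromosome 11 from 99232761 to 100269871, and chromosome 15 held the 23 type II genes and the type I gene Krt18 between 101347444 and 102032027. Krt18 lies 23.7 kb from Krt8, its usual partner. RefSeq promoter windows (GRCm38.p6, the mm10 assembly) were found for 35 of the 49 genes. Stretches of 5 of them are printed, read 5′ to 3′ on the gene's strand, without the bases that GENCODE M21 annotates as exon. Krt8 and Krt18 are the most abundant simple pair with an entry, Krt5 is the basal type II keratin, Krt10 is a suprabasal keratin, and Krt28 is a hair follicle keratin at the floor of detection. Capitals mark matches to a TATA box or a CCAAT box.
Krt8, chr15:102004483-102004592, minus strand: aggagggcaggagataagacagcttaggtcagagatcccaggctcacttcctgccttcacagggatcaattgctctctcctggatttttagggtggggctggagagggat
Krt18, chr15:102027966-102028179, plus strand: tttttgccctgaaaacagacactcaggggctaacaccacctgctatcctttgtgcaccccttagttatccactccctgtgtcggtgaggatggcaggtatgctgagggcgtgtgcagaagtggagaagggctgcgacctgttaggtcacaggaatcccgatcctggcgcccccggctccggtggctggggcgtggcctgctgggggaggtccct
Krt5, chr15:101712906-101713155, minus strand: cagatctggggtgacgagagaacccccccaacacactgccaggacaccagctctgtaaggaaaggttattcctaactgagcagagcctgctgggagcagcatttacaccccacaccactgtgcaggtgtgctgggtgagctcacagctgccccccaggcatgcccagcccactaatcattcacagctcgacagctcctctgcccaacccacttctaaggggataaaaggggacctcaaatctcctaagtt
Krt10, chr11:99389365-99389614, minus strand: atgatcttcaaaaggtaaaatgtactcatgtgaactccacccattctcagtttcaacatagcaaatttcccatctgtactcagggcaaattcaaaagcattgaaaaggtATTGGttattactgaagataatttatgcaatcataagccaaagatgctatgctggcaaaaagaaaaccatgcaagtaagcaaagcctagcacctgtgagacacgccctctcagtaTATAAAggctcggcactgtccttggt
Krt28, chr11:99374904-99375153, minus strand: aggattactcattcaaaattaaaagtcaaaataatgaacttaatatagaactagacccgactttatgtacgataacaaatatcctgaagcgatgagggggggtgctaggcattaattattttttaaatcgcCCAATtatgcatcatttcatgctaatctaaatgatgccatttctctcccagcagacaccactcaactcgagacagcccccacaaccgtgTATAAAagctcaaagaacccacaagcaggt

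The motifs were searched on both strands of the 250 bases before each RefSeq start, and none of them contains another. The TATA box, searched as TATAAA, was in 16 of 35 keratin windows (45.7%) and in 12.4% of 32851 windows of all genes. In 12 of the 16 its nearest copy began 26 to 31 bases before the start, as in Krt10 and Krt28. Among keratins with a window and a mean of at least 1 TPM, 1 of 10 had it, Krt10. Among those below 1 TPM 15 of 25 had it. Krt19, the most abundant keratin, and Krt17, Krt15, Krt80 and Krt1 also reached that mean but had no window, so the split leaves them out. RefSeq and GENCODE M21 place some starts differently. The windows of Krt7 and Krt14, both among the 10, lie inside the GENCODE genes, and those of Krt8 and Krt18 overlap them in part. The 2 shares are therefore not a clean comparison of promoters. The GC box, GGGCGG, was in 2 keratin windows (5.71%), those of Krt7 and Krt75, and in 32.7% of all windows. The CCAAT box, CCAAT, was in 13 keratin windows (37.1%) against 33.8%, and the AP-1 motif, TGANTCA, was in 1, that of Krt13 (2.86%), against 6.75%. The full windows of Krt8, Krt18 and Krt5 held none of the 4 motifs as spelled here. Variant spellings were not searched, so a window without a match can still hold a variant TATA box. These are matches of letters and carry no test. Each keratin had 1 window, while the 32851 windows of all genes were not limited to 1 for each gene.

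Keratin transcripts summed to 959 TPM in replicate 1 and 1379 TPM in replicate 2, which is 0.0959% and 0.138% of all transcripts. A mean of 1 TPM or more was reached by 15 keratins, of which 13 had at least 1 TPM in both replicates. Of the other 34, 12 had no fragment in either replicate and 10 had at most 3, which was taken as the floor of detection (0.0533 and 0.0708 CPM, counts scaled to library size). Simple keratins held 75.2% of keratin TPM in replicate 1 and 90.1% in replicate 2. Basal keratins held 17.9% and 8.73%, epidermal and mucosal keratins 6.17% and 0.618%, and hair and nail keratins 0.661% and 0.486%. The order of the 4 groups was the same in both replicates.

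**Figure D1:**
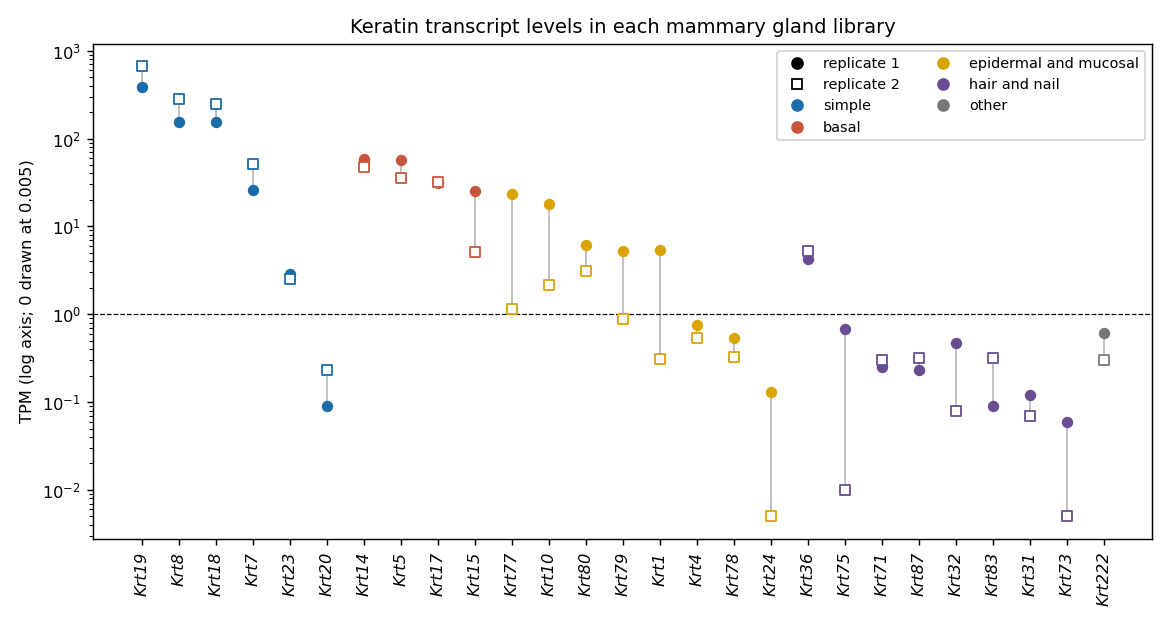
TPM (log axis) of the 27 keratins with more than 3 fragments in a replicate, with filled circles for replicate 1, open squares for replicate 2, colours for the keratin groups and a dashed line at 1 TPM. Krt19, Krt8 and Krt18 lie above 150 TPM in both replicates, and replicate 1 lies far above replicate 2 for Krt15, Krt77, Krt10, Krt79, Krt1 and, below 1 TPM, Krt75.

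Krt19, the smallest type I keratin and one without a tail domain, had the highest level (chromosome 11, 100140810 to 100148665). Its level was 385 TPM in replicate 1 and 660 TPM in replicate 2, on average 522 ± 195 TPM (SD, n = 2), rank 208 among protein-coding genes by mean TPM. It alone made up 40.1% and 47.9% of keratin TPM. Krt8, the type II keratin of simple epithelia (chromosome 15, 101996698 to 102004482), stood at 154 and 282 TPM. Its type I partner Krt18 (chromosome 15, 102028180 to 102032027) stood at 153 and 247 TPM. The ratio of Krt8 to Krt18 was therefore close to even in both replicates, 1.01 and 1.14. Krt7, a type II keratin of ductal and glandular epithelia (chromosome 15, 101411043 to 101430313), stood at 25.6 and 50.9 TPM. Krt23, a type I keratin of glandular epithelia, was low at 2.89 and 2.55 TPM. Krt20, known from intestinal epithelium and Merkel cells, was listed at 0.09 and 0.23 TPM from 7 and 12 fragments.

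Krt19, Krt8, Krt18 and Krt7 each had a higher level in replicate 2. To set these gaps beside counting error, expected counts were rounded, scaled by summed gene counts and given a 95% Clopper-Pearson interval, which covers counting error only. A gene was counted as beyond 2-fold where its interval lay wholly past 2-fold, that is past 1 on the log2 scale. Over the 13272 protein-coding genes with a mean of at least 1 TPM, 8.97% were beyond 2-fold and higher in replicate 1 and 8.66% higher in replicate 2. The log2 count ratio of replicate 2 to replicate 1 was 0.74 for Krt19 (21966 and 27641 counts, interval 0.72 to 0.77). It was 0.79 for Krt8 (0.75 to 0.82), 0.61 for Krt18 (0.56 to 0.65) and 0.97 for Krt7 (0.92 to 1.03), so none of the 4 lay beyond 2-fold. With the trend over GC content removed, the ratios were 0.26 for Krt19, 0.35 for Krt8, 0.26 for Krt18 and 1.01 for Krt7. Krt23, with 169 and 106 counts, had a ratio of -0.26 and an interval of -0.63 to 0.10 that includes equality.

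Summed simple keratins reached 721 and 1243 TPM, averaging 982 ± 369 (SD, n = 2). The luminal epithelial markers, a list that includes Cldn3 (83.3 and 251 TPM) and Epcam (30.5 and 63.8 TPM), summed to 411 and 857 TPM, with 10 of 10 at 1 TPM or more in both replicates. Of the 10, 7 had a higher TPM in replicate 2, 3 of them beyond 2-fold, and 3 a higher TPM in replicate 1: Elf5 (40.3 and 21.6 TPM), Cdh1 (32.7 and 28.7 TPM) and Prom1 (6.35 and 3.17 TPM). Of all genes tested, 8.66% were beyond 2-fold and higher in replicate 2, and 52.1% had a count ratio towards replicate 1. The sum of simple keratins over that of luminal markers was 1.76 and 1.45. In bulk tissue, fewer cells of a type and less RNA per cell cannot be told apart. Simple keratins are also used by mesothelium and Merkel cells. Mesothelial markers summed to 2.82 and 3.01 TPM over the 6 genes found, most of it Lrrn4 (2.09 and 2.68 TPM). Of the others, Wt1 was at the floor and Msln stood at 0.18 and 0.03 TPM. Merkel cell markers summed to 15.3 and 11.3 TPM over 6 genes, most of it Piezo2 (11.9 and 11.1 TPM), with Vip at the floor, Atoh1 at 0.11 and 0.07 TPM, and Isl1 at 2.99 and 0 TPM.

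The basal keratins were next. Krt14, the type I keratin of basal and myoepithelial cells (chromosome 11, 100203162 to 100207548), stood at 58.5 and 47.7 TPM. Krt5, its type II partner (chromosome 15, 101707070 to 101712898), stood at 57.3 and 35.8 TPM. The ratio of Krt5 to Krt14 was 0.979 in replicate 1 and 0.750 in replicate 2. Krt17, a type I keratin of basal and appendage epithelium that is induced in injured skin (chromosome 11, 100256217 to 100261029), stood at 30.8 and 31.9 TPM. Krt15, a type I keratin of basal keratinocytes and the hair follicle bulge (chromosome 11, 100131758 to 100135928), stood at 25.1 and 5.08 TPM. Krt14, Krt5 and Krt17 were within 2-fold of each other in both replicates, while Krt15 over Krt14 was 0.428 in replicate 1 and 0.107 in replicate 2.

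The log2 count ratio of Krt15 was -2.38 (1609 and 232 counts, interval -2.59 to -2.18), which is 5.22-fold higher in replicate 1 and beyond 2-fold. For Krt5 it was -0.76 (interval -0.83 to -0.69), for Krt14 -0.30 (-0.38 to -0.22) and for Krt17 -0.03 (-0.14 to 0.07). These 3 were within 2-fold. With spike-in totals as the scale the ratio of Krt5 was 0.00 and that of Krt14 was 0.47, and with the GC trend removed the ratio of Krt5 was -1.18, beyond 2-fold. The ratio of Krt17 was above 0 under TMM factors, DESeq2 size factors, spike-in totals and the TPM ratio, at 0.05 to 0.73. Myoepithelial markers summed to 625 and 534 TPM, with 8 of 8 at 1 TPM or more in both replicates. Of the 8, 0 were beyond 2-fold, against 8.97% of genes tested towards replicate 1 and 8.66% towards replicate 2. Among these markers Acta2, smooth muscle actin, was the highest at 476 and 353 TPM. Trp63, a transcription factor of basal cells, stood at 10.01 and 5.11 TPM and Oxtr, the oxytocin receptor, at 40.7 and 60.2 TPM. Summed basal keratins reached 172 and 120 TPM, averaging 146 ± 36.2 (SD, n = 2), and the ratio of simple to basal keratins was 4.2 and 10.3.

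Of the 4 keratin groups, the epidermal one had the widest gap between the replicates, a log2 ratio of summed counts of -3.07 (-3.20 to -2.94) towards replicate 1. Krt77, a type II keratin of epidermis and sweat gland ducts (chromosome 15, 101858731 to 101869705), stood at 23.1 and 1.15 TPM, from 2713 and 96 counts. Krt10, the type I keratin of suprabasal epidermis (chromosome 11, 99385254 to 99389364), stood at 17.8 and 2.15 TPM. Krt1, its type II partner (chromosome 15, 101845426 to 101850794), stood at 5.42 and 0.31 TPM. Krt79, a type II keratin of the hair follicle canal and sebaceous duct (chromosome 15, 101929332 to 101940324), stood at 5.29 and 0.88 TPM. Each of the 4 lay beyond 2-fold on the side of replicate 1: 21.3-fold for Krt77, 8.75-fold for Krt10, 18.7-fold for Krt1 and 6.36-fold for Krt79. Krt80, a type II keratin of many epithelia (chromosome 15, 101347444 to 101370162), stood at 6.14 and 3.09 TPM. Its log2 count ratio was -1.07 with an interval of -1.36 to -0.80 that reaches inside 2-fold.

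The remaining 9 genes of the epidermal and mucosal group were below 1 TPM. Krt4, a keratin of oral and oesophageal mucosa, stood at 0.76 and 0.53 TPM, Krt78 at 0.53 and 0.33 TPM, and Krt24 at 0.13 and 0 TPM from 9 fragments and none. Krt12 of the cornea, Krt13 of mucosa and Krt16 of stressed epidermis were at the floor in both replicates by count. The level of Krt13 is poorly determined: the upper bound of the authors' TPM interval was 15.0 and 25.2 TPM, and their posterior mean was 5.11 and 8.54 TPM. Krt2 of suprabasal epidermis, Krt76 of the palate and Krt9 of palms and soles had no fragment. The group summed to 59.2 and 8.53 TPM, averaging 33.9 ± 35.8 (SD, n = 2), and was 6.94-fold higher in replicate 1. With the authors' posterior mean TPM the sums were 63.95 and 17.1 TPM, 3.73-fold apart, and 58.8 and 8.59 TPM without Krt13, 6.85-fold apart, a setting chosen after seeing the data. Pairs did not keep their proportions: Krt1 over Krt10 was 0.305 and 0.144, and Krt77 over Krt10 was 1.30 and 0.535. Krt77 over Krt1 was 4.27 and 3.71.

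Markers of cornified epidermis moved with these genes. Their 14 genes summed to 245 TPM in replicate 1 and 80.1 TPM in replicate 2, with Flg at the floor. Of the 9 with a mean of at least 1 TPM, 6 were beyond 2-fold and higher in replicate 1, where 8.97% of all genes tested were. In the other direction 0 were beyond 2-fold. Among the 6, Calml3 (3.93 and 0.38 TPM), Klk7 (3.97 and 0.11 TPM) and Flg2 (2.24 and 0.14 TPM) reached that mean only through replicate 1. The share therefore rests in part on the filter, and 6 of the 14 genes had at least 1 TPM in both replicates. Of the 5 below 1 TPM, 4 were also beyond 2-fold and higher in replicate 1, a level at which the share over all genes was not computed. Dmkn stood at 97.9 and 4.75 TPM and Krtdap at 52.8 and 1.13 TPM. Sbsn was closer, at 14.2 and 11.7 TPM, and Cdsn, the corneodesmosin gene, had nearly the same level in each, 57.9 and 58.8 TPM. Without Cdsn the list summed to 187 and 21.4 TPM. Skeletal muscle markers moved the same way, with 7 of 7 beyond 2-fold and higher in replicate 1, against 8.97% of all genes tested. Their sums were 27572 and 13.1 TPM. Of the 7, 4 had at least 1 TPM in both replicates, so this share too rests in part on the filter. Whether skin in the dissected tissue had a part in the keratin difference was not tested, and the amount of skin or muscle and the replicate cannot be told apart.

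Among the 15 keratins with a mean of at least 1 TPM, 5 were beyond 2-fold and higher in replicate 1 (33.3%), against 8.97% of the 13272 protein-coding genes at that level. In the other direction 0 of 15 were beyond 2-fold, against 8.66%. No p-value is attached, since this is a comparison of 2 libraries whose genes are not replicates. The 5 were Krt15, Krt77, Krt10, Krt1 and Krt79. Of these, Krt1 (5.42 and 0.31 TPM) and Krt79 (5.29 and 0.88 TPM) reached the mean of 1 TPM only through replicate 1. They are not among the 13 keratins with at least 1 TPM in both replicates, so the 33.3% rests in part on the filter. The median log2 count ratio was -0.30 over the 15 keratins and -0.05 over the genes tested. The split depended on the scaling: over the genes tested, 1191 were higher in replicate 1 and 1150 in replicate 2 with total counts, 907 and 1491 with DESeq2 size factors and 358 and 4219 with spike-in totals. Each of those scalings left 5 keratins higher in replicate 1. In replicate 2, Krt7 passed with DESeq2 size factors, and Krt19, Krt8, Krt18 and Krt7 passed with spike-in totals.

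**Figure D2:**
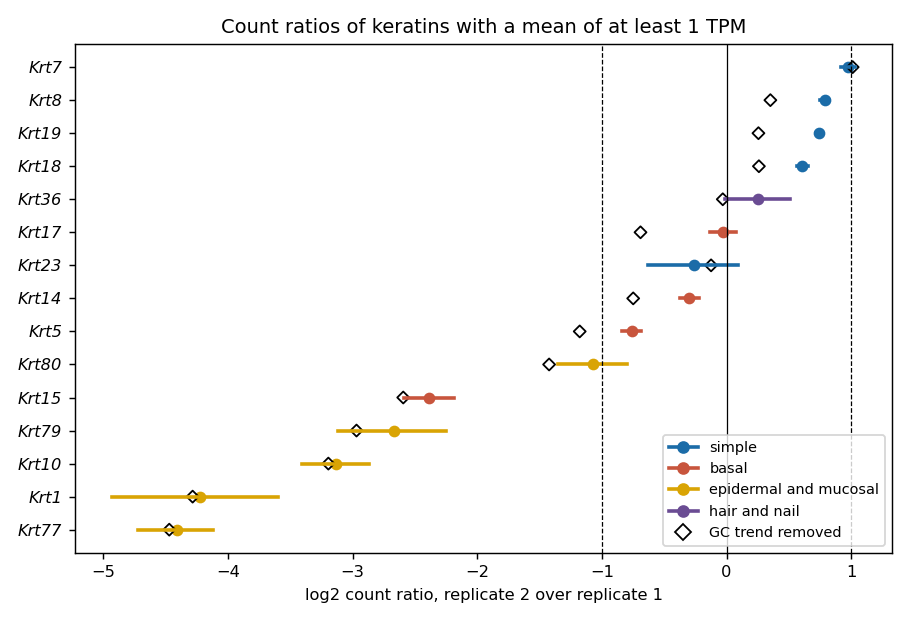
Log2 count ratio of replicate 2 over replicate 1 for the 15 keratins with a mean of at least 1 TPM, with 95% Clopper-Pearson intervals as lines, dashed lines at 2-fold and open diamonds for the ratio after removal of the GC trend. Krt77, Krt1, Krt10, Krt79 and Krt15 lie wholly beyond 2-fold on the side of replicate 1 both with and without the GC trend, and the diamonds of Krt19, Krt8 and Krt18 lie nearer to 0 than their circles.

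Hair and nail keratins number 23 and nearly all were near or at the floor. Krt36, a type I keratin of filiform papillae and nail (chromosome 11, 100102007 to 100105626), was the exception at 4.22 and 5.31 TPM, from 266 and 238 counts. Its log2 count ratio of 0.25 had an interval of -0.01 to 0.51 that includes equality. The next highest were Krt75 at 0.68 and 0.01 TPM, Krt71 at 0.25 and 0.30 TPM, Krt87 at 0.23 and 0.32 TPM and Krt32 at 0.47 and 0.08 TPM. Krt75, a companion layer keratin, had 89 fragments in replicate 1 and 1 in replicate 2, a log2 ratio of -6.07 with a wide interval of -11.39 to -3.55. Krt83, Krt31 and Krt73 had at most 9 fragments in either replicate. Krt28, Krt35, Krt40, Krt42, Krt84 and Krt88 had at most 3 fragments. No fragment was assigned to Krt25, Krt26, Krt27, Krt34, Krt39, Krt72, Krt81, Krt82 and Krt86.

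The hair keratins summed to 6.34 and 6.70 TPM, and Krt36 was the larger share of that in both replicates. Hair shaft and root sheath markers summed to 7.47 and 17.5 TPM, of which Msx2 was 6.00 and 15.5 TPM, while Tchh, Tchhl1 and Crisp1 were at the floor. Of 57 keratin-associated protein genes, which encode the matrix of the hair shaft, 53 had no fragment, and their sum was 1.85 and 0.40 TPM. Of the 2 genes placed in no group, Krt222, a keratin-like type I gene, stood at 0.61 and 0.30 TPM and Krt90 was at the floor.

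Type I transcripts outnumbered type II transcripts. Their sums were 679 and 280 TPM in replicate 1 and 1003 and 376 TPM in replicate 2, ratios of 2.42 and 2.67. Among simple keratins the ratio was 3.0 and 2.74, and among basal keratins 2.0 and 2.37. Epidermal keratins went the other way at 0.434 and 0.356, with Krt77 the highest of the type II genes in replicate 1 and Krt80 in replicate 2. These ratios count the type I gene Krt13 at 0 and 0.05 TPM. Its posterior mean of 8.54 TPM in replicate 2 is above the epidermal type II sum of 6.29 TPM there. The epidermal direction in replicate 2 therefore depends on how Krt13 is estimated. Over all groups, Krt19 made up most of the type I sum, and no type II keratin reached its level. Krt8 over Krt19 was 0.402 and 0.427, and Krt7 over Krt19 was 0.0666 and 0.0770. These are levels of RNA per length and not of protein.

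**Figure D3:**
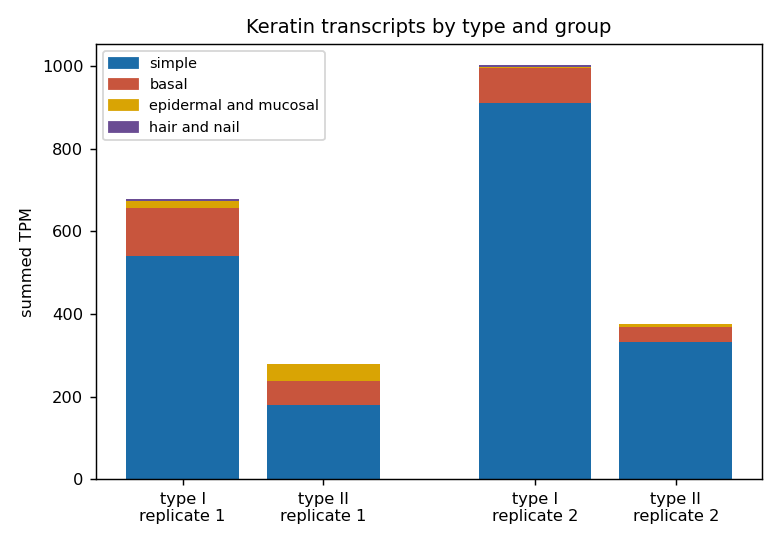
Summed TPM of type I and type II keratins in each replicate, stacked by keratin group (Krt222 and Krt90, in no group, are not drawn). The type I bars reach 679 and 1003 TPM and the type II bars 280 and 376 TPM, and simple keratins are the largest layer of all 4 bars.

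Neighbours in the clusters differed in level by orders of magnitude. Neighbours are meant among the genes described here, and genes left out by the symbol rule can lie between them. On chromosome 11, Krt19 lies between Krt15 and Krt9, which stood at a mean of 15.1 TPM and at no fragment. Krt14 and Krt17 flank Krt16, which was at the floor in both replicates. On chromosome 15, Krt8 and Krt18 end the cluster and Krt80 and Krt7 begin it, while Krt5 lies between the hair keratins Krt75 and Krt71.

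**Figure D4:**
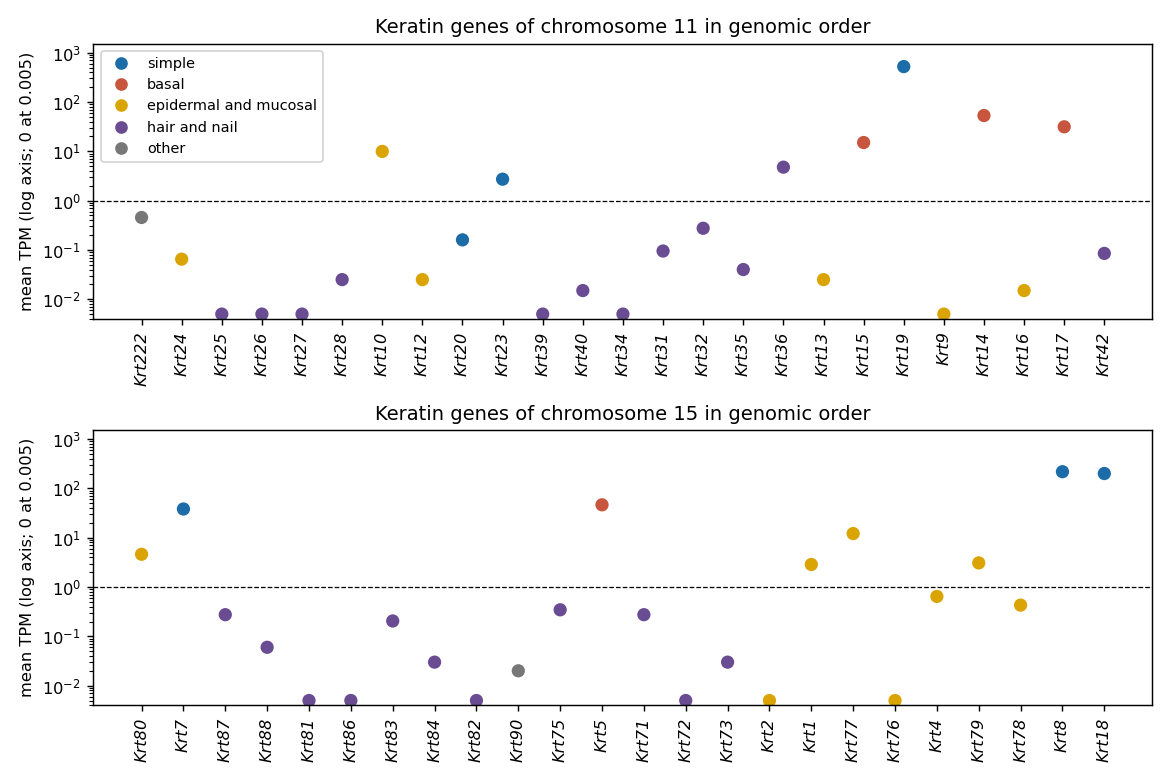
Mean TPM over both replicates (log axis, 0 drawn at 0.005) of keratin genes in genomic order on chromosomes 11 and 15, coloured by group with a dashed line at 1 TPM; distances are not to scale. Simple and basal keratins with high levels sit beside genes without fragments, as Krt19 does beside Krt9.

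Most keratins had a single annotated transcript: 11 of the 15 with a mean of at least 1 TPM. Krt7 was the exception that affects its level. Its coding transcript stood at 13.7 and 40.6 TPM, and a retained-intron transcript at 11.6 and 10.3 TPM. The coding transcript was therefore 53.6% of the gene in replicate 1 and 79.8% in replicate 2. For Krt14, the coding transcript took 82.2% and 95.6%, and a transcript without a reading frame the rest. For Krt19 such a transcript took 5.5% in replicate 1 and 0% in replicate 2. Assignment between overlapping transcripts is estimated from the reads, and no error is given for it here.

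Splice junctions, deposited once for both libraries on mm9, were matched to keratins by intron lengths and spacing. The match succeeded for 22 of the 49 genes, with 139 of their 157 introns found, and 14 had every intron. The median count per intron was 2796 for Krt19, 893 for Krt18 and 718 for Krt8. It was 376 for Krt7, 217 for Krt14, 213.5 for Krt5, 153 for Krt15 and 148 for Krt17. The skin keratins had 74.5 for Krt77, 72 for Krt10, 33 for Krt79 and 15 for Krt1. Krt36 was spliced at 6 of 6 introns with 257 counts in sum. Within Krt80, 17.1% of junction counts fell on introns outside the annotated transcript used, the most on a junction with 39 counts, where its own introns had a median of 27. Counts along a gene were uneven, from 9 to 3820 for Krt8. The table does not separate the replicates here.

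Similar sequences could move reads between keratins. At the read length of 76 bases, Krt8 shared 21.8% of its 76-base stretches with the pseudogene Krt8-ps, which had no entry matched in the tables, so the Krt8 level is uncertain to that extent. Krt14 shared 5.79% with Krt16, and Krt5 shared 5.04% with Krt6a, Krt6b and the predicted genes Gm5414 and Gm5478. Krt19, Krt18, Krt7, Krt17, Krt15, Krt77, Krt10, Krt36, Krt80, Krt79, Krt1 and Krt23 shared none. Among low genes the sharing was larger, at 35.2% for Krt81 and 33.2% for Krt86, hair keratins without a fragment. The authors' posterior SD of the count was above 0 for 4 of the 15 and at most 1.88 fragments.

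The genes that tie keratin filaments to cell junctions were also measured. Of the 20 desmosome and linker genes listed, 19 were found and 15 had at least 1 TPM in both replicates. Of the 15, 0 were beyond 2-fold in either direction, against 8.97% of genes tested towards replicate 1 and 8.66% towards replicate 2. No conclusion is drawn from 0 of 15. The nearest to a call were Dsc3 (log2 -1.22, interval -1.45 to -0.99), Dsc2 (-1.04, -1.32 to -0.76) and, towards replicate 2, Pkp2 (0.94, 0.81 to 1.07). The 19 genes summed to 383 and 488 TPM. Jup, plakoglobin, stood at 147 and 213 TPM, and Plec, the linker plectin, at 64.1 and 83.2 TPM. Perp stood at 53.9 and 40.2 TPM and Pkp3, plakophilin 3, at 25.4 and 44.3 TPM. The other 4 genes found, all desmosomal cadherins of stratified epithelium with a mean below 1 TPM, were beyond 2-fold and higher in replicate 1. The share over all genes below 1 TPM was not computed, so these calls have no background beside them. Of the 4, Dsg1a and Dsc1 are also cornified markers already counted above. Dsg1a stood at 1.77 and 0.10 TPM, Dsg3 at 0.71 and 0.01 TPM, Dsg1b at 0.58 and 0.03 TPM and Dsc1 at 0.50 and 0.04 TPM.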

How the data were processed

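Gene and transcript tables of 2 libraries were used as deposited, on mm10 with GENCODE M4 as the accompanying notes state. Per the labels, libraries were stranded, paired-end and poly(A)-selected. Per the file headers, the authors deposited expected counts, TPM, FPKM and the percent of each gene's level taken by each transcript. The splice junction counts were deposited by the authors once, on mm9, and only the pooled count was used. For aligner, quantifier and junction caller: not given in the sources used here.

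GENCODE M21 supplied names, GC content and coordinates and named 42462 of 43346 identifiers. Junctions were matched to genes by structure, with no coordinates converted. A gene was matched where at least 3 of its introns were found in 1 arrangement and no rival arrangement held more than 1. Expected counts were rounded and scaled by summed gene counts. Intervals were 95% Clopper-Pearson. No test between groups was possible with 1 group. Alternatives were TMM factors (edgeR 4.0.16), DESeq2 1.42.0 size factors, spike-in totals (96 entries), removal of the median difference in 20 GC bins, other filters and units, and each replicate left out. Scripts ran in Python 3.11.15 (scipy 1.17.1, pandas 2.3.3, numpy 2.4.6, figures in matplotlib 3.10.9) and R 4.3.3.

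The members and lists were chosen with earlier results of these data known. Members with a mean of at least 1 TPM are given in full, the rest by counts with up to 5 of the highest in each group, and those without a fragment by name. Genes named at the floor, and Krt24, Krt31, Krt73, Krt83, Dsg1a, Dsg1b, Dsg3, Dsc1, Epcam, Elf5, Cdh1, Prom1, Sbsn, Msln, Atoh1, Isl1, Trp63 and the promoters printed, were chosen after their values were seen. Calml3, Klk7, Flg2, Dsc3, Dsc2 and Pkp2 were also chosen after their values were seen. The protein sequences that the rule asked for were not used here.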

Additional observations from a re-analysis of the deposited data

How the results depend on the processing

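The 5 keratins counted as beyond 2-fold and higher in replicate 1 numbered 5 to 7 under the alternatives: 7 with the GC trend removed, which added Krt5 (-1.18) and Krt80 (-1.42), and 6 without the TPM filter, which added Krt75. The count higher in replicate 2 was 0, and it was 1 with TMM factors, 1 with DESeq2 size factors and 4 with spike-in totals, which move the median log2 ratio of all genes tested from -0.05 to 0.72. These counts need both libraries and could not be run without a replicate. Keratins detected in both numbered 13, and 8 at 5 TPM, 22 with more than 3 fragments and 13 to 15 with a replicate left out. Left-out sums ranged from 721 to 1243 TPM for simple, 120 to 172 TPM for basal, 8.53 to 59.2 TPM for epidermal and 6.34 to 6.70 TPM for hair keratins. With posterior mean TPM the epidermal sums were 63.95 and 17.1 TPM, averaging 40.5 TPM, which cut the gap between replicates from 6.94-fold to 3.73-fold, and Krt13 held 5.11 and 8.54 TPM of these sums. The hair keratin mean of 6.52 TPM was 7.07 TPM with posterior mean TPM and 7.49 TPM without mitochondrial and muscle genes. Rescaled without those genes, the sums were 908 and 1300 TPM for simple, 216 and 126 TPM for basal and 74.6 and 8.92 TPM for epidermal keratins. The gap between replicates was thus narrower for simple keratins and wider for basal and epidermal ones. Leaving out Krt7, an alternative chosen after seeing the data, gave 944 TPM for simple keratins. The log2 count ratio changed sign for Krt14 (0.47), Krt5 (0.0036) and Krt23 (0.50) with spike-in totals, and for Krt36 (-0.030) with the GC trend removed. It did so for Krt17 with TMM factors (0.058), DESeq2 size factors (0.10), spike-in totals (0.73) and the TPM ratio (0.052). Of the 75 values for single keratins under alternatives, 59 kept their direction and side of the threshold, 8 newly passed it and 8 changed sign, and the cause was not tested. No paired analysis was possible because there is only 1 group. Below about 3 fragments a keratin cannot be told from absent.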

Other observations

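Of the keratins outside the symbol rule, only Krt6a lay above the floor. Krt6a, a type II keratin of stressed and appendage epithelium, stood at 4.09 and 0.85 TPM from 361 and 53.5 counts. Like Krt1 and Krt79, it had 1 TPM or more only in replicate 1, and no count ratio was computed for it. Krt6b stood at 0 and 0.02 TPM, and Krt33a and Krt33b at 0 in both replicates. The pseudogene Krt74 had 2 fragments in replicate 1 and none in replicate 2. Salivary and oral markers summed to 58.97 and 20.97 TPM over the 4 genes found, nearly all of it Amy1, with Bpifa2, Prol1 and Smr2 at the floor.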
